A study of Mus musculus with 6 samples.

Results

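Glucose enters a cell through transporters of the GLUT family, is trapped by hexokinase as glucose 6-phosphate, is rearranged to fructose 6-phosphate by glucose-6-phosphate isomerase and is committed to glycolysis by phosphofructokinase. Phosphofructokinase is driven by fructose 2,6-bisphosphate, which the bifunctional PFKFB enzymes make and degrade. Several of these steps are carried out by alternative isoenzymes, and tumor cells are known for high glucose uptake and for a choice of isoenzymes that is often set by hypoxia-inducible factor (HIF) and MYC. The 10 genes described here cover this route from uptake to fructose bisphosphate: Slc2a1 and Slc2a3 (the transporters GLUT1 and GLUT3), Hk1 and Hk2 (hexokinases), Gpi1 (glucose-6-phosphate isomerase), Pfkl, Pfkm and Pfkp (the liver, muscle and platelet phosphofructokinases), and Pfkfb3 and Pfkfb4. They were chosen by symbol for their place in the pathway, with earlier results of these data known. All 10 were found among the 24421 genes of the count table, and 9 of them were among the 13084 genes with enough counts to be tested.

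RNA was sequenced from 4T1-tetL1(GLucAI) cells, a derivative of the mouse breast carcinoma line 4T1 of strain BALB/cfC3H. The cells of both groups carried an integrated cassette in which a tetracycline-responsive promoter drives firefly luciferase and a recoded mouse LINE-1 (L1) retrotransposon with a Gaussia luciferase reporter of retrotransposition. The cassette also supplies the tetracycline activator from an EF1α promoter, and the line is a blasticidin-selected population rather than a clone. The groups were 3 untreated libraries, whose treatment tag reads vehicle, and 3 libraries from cells exposed to 400 ng/mL doxycycline for 48 h. The comparison therefore asks what happens to these genes when the cassette is induced. It cannot separate L1 from the drug, since doxycycline-treated cells without the L1 cassette were not analysed here. Nor can it separate L1 from the firefly luciferase and the reporter sequence induced together with it. The study calls the samples biological triplicates, while the labels do not say whether they came from separate cultures, so p-values measure the spread between these samples.

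Library totals ran from 31653464 to 43631312 counts, and the ranges of the groups overlapped. Levels are given as CPM, counts scaled to the TMM-adjusted library total, and 3 counts, the least treated as detected, came to 0.0683 to 0.0944 CPM. This floor reflects counting error alone. The epithelial markers Epcam, Krt8, Krt18, Krt7, Cdh1, Cldn3 and Cldn4 were all over 1 CPM, with summed levels of 1804 to 1887 CPM in untreated and 1760 to 1999 CPM in doxycycline libraries. Of 5 fibroblast markers only Pdgfra was over 1 CPM and Lum and Thy1 had no count. Summed fibroblast markers reached 35.2 to 37.7 CPM in untreated and 27.4 to 28.6 CPM in doxycycline libraries, nearly all of it Pdgfra. Pdgfra passed the same test as the genes described here (log2 fold change -0.40, edgeR adjusted p 0.000952) and was called in all 6 fits with 1 library fewer, and the part of this in the results was not tested. Leukocyte markers summed to 8.88 to 11.7 CPM over both groups, almost entirely Cd68, with Cd3e at or near 0, and endothelial markers stayed below 1 CPM. Induction of the cassette itself was not analysed here, so each direction rests on the sample titles. In bulk RNA, fewer cells expressing a gene and less of its RNA per cell cannot be told apart.

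The 9 measurable genes were all lower on average in the doxycycline libraries, and 4 of them fell past the threshold (edgeR quasi-likelihood test, Benjamini-Hochberg adjusted p under 0.05 over all tested genes). These were the transporter Slc2a1, the phosphofructokinases Pfkl and Pfkp, and the phosphofructokinase activator Pfkfb3, with decreases of 13.2 to 20.4%. Hk1, Hk2, Gpi1, Pfkm and Pfkfb4 did not pass, and 0 members were called higher. Of all tested genes 3.09% were called, 0.925% higher and 2.16% lower, beside 4 of 9 members lower. Because the members were chosen with earlier results of these data known, these shares are a description and not a test. The CPM ranges of the groups did not overlap, with doxycycline lower, for 6 of the 9 genes, against 11.1% of all tested genes. Their median log2 fold change was -0.16, against 0.002 over all tested genes. The count of 4 depended on single libraries: it was 7 without doxycycline replicate 2, 2 without doxycycline replicate 1 or untreated replicate 1 or 2, and 1 without doxycycline replicate 3 or untreated replicate 3. Lower calls over all tested genes, 283 with all libraries, moved too. They were 487 without doxycycline replicate 2, 356 without doxycycline replicate 1, and 141 and 151 without untreated replicates 1 and 2. Without doxycycline replicate 3 they were 149, and without untreated replicate 3 they were 116. With a correction for GC content and length the count of members was 6, Hk2 (adjusted p 0.00507 by edgeR) and Gpi1 (0.0432) being called as well. That fit called 438 of all tested genes lower.

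**Figure D1:**
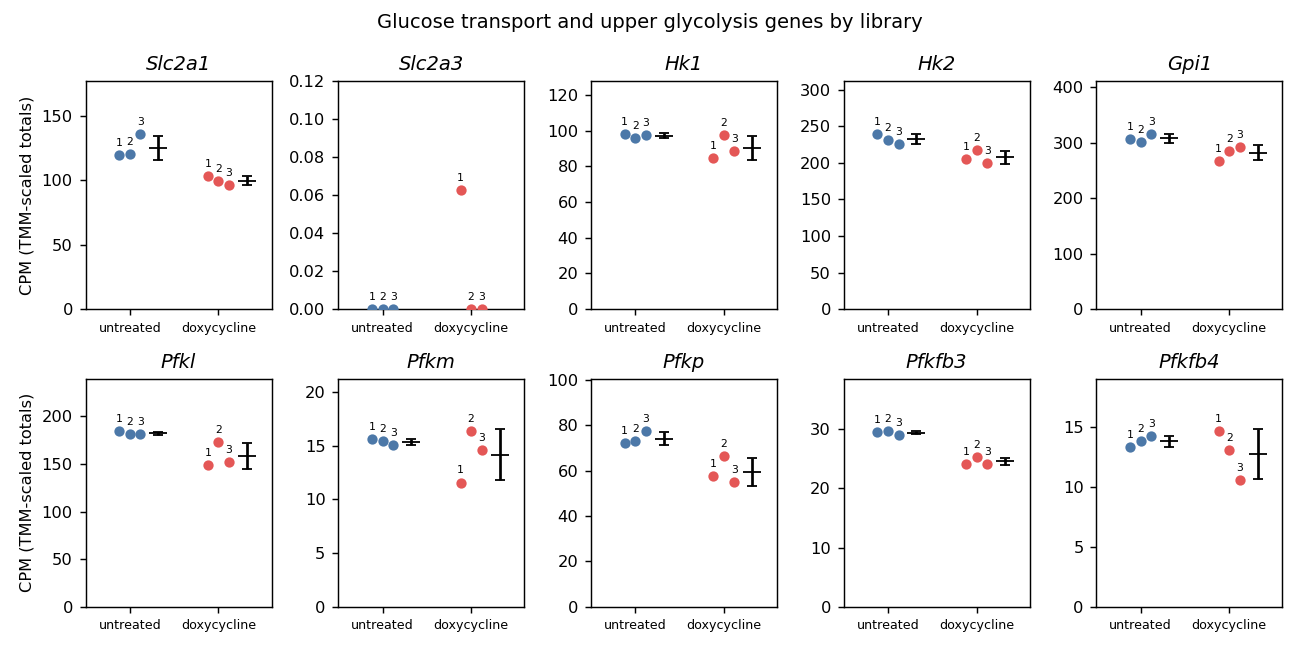
CPM of each of the 10 genes in the 6 libraries, with the replicate number beside each point and the mean and SD of 3 libraries as a bar (none for Slc2a3, with 2 counts in 1 library). Each axis starts at 0. The groups separate for Slc2a1, Hk2, Gpi1, Pfkl, Pfkp and Pfkfb3 and overlap for Hk1, Pfkm and Pfkfb4.

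Promoter sequence is shown for the 4 genes that fell, because the core of the hypoxia response element and the E-box, the letters read by HIF and by MYC-type factors, can be looked up in it directly. The stretches come from the 250 bases before a RefSeq start in GRCm38.p6 and are given 5′ to 3′ on the strand of the gene. Bases that GENCODE annotates as exon were left off, apart from 3 bases of a motif at the edge of Slc2a1. The stretch of Slc2a1 lies at chr4:119108495-119108713 on the plus strand. Those of Pfkl (chr10:78009808-78010004), Pfkp (chr13:6648778-6649021) and the inner of the 2 Pfkfb3 starts (chr2:11502102-11502340) lie on the minus strand, those of Pfkl and Pfkfb3 within the annotated gene. The inner Pfkfb3 start was chosen after its motifs were seen. At the outer one, 148 of the 250 bases are annotated exon, and the 102 bases left hold 0 of these motifs. The exon part of that window holds 1 ACGTG, beginning 60 bases before the RefSeq start, and the window counts as holding a motif below. Capitals mark each ACGTG or GCGTG on either strand, so that the reverse complements CACGT and CACGC are also in capitals.
Slc2a1: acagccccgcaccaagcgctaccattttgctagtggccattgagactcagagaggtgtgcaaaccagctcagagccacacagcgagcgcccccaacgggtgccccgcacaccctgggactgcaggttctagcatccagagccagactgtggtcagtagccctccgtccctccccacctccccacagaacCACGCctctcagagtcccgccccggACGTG
Pfkl: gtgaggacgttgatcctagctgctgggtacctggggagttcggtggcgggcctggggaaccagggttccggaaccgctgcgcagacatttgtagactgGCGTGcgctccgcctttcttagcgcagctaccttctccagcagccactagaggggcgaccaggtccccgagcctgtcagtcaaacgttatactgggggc
Pfkp: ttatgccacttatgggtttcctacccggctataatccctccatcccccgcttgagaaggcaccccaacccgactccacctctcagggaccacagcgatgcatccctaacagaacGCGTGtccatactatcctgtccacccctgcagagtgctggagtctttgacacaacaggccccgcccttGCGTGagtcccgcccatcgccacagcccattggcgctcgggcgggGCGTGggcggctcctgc
Pfkfb3: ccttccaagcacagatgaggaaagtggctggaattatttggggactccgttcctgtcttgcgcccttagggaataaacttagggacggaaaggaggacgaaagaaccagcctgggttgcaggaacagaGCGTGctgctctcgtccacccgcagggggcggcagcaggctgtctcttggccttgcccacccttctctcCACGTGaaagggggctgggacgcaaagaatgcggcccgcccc
The Slc2a1 stretch holds 1 ACGTG and 1 GCGTG, beginning 36 and 61 bases before the RefSeq start. Pfkl holds 1 GCGTG, Pfkp holds 3, and Pfkfb3 holds 1 GCGTG and the E-box CACGTG. RefSeq gave 14 windows of 250 bases for 9 of the 10 genes, several genes having more than 1 start, and ACGTG or GCGTG was present in 11 of the 14 windows and for 8 of the 9 genes. The gene without either was Gpi1. A gene counted if any of its windows matched, and a share per gene over all genes is not given here. Over all 32851 mouse windows of this length 38.6% held ACGTG or GCGTG, to be set beside the 11 of 14 windows only. CACGTG, which contains ACGTG, was in 6.02% of all windows, against 2 of the 14, 1 each of Pfkm and Pfkfb3. Median GC content was 59.8% in member windows and 52.4% in all windows, and its part in the difference in motif shares was not tested. A pair of the Pfkm windows overlap each other.

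Slc2a1, the main basal glucose transporter of most dividing cells (chromosome 4, 119108711 to 119137983 of GRCm38, plus strand, protein-coding), had a decrease close to that of Pfkp, and these were the 2 largest estimates of the 9 genes. Their order is not resolved, since Pfkp was the larger of the pair without doxycycline replicate 2 (-0.40 against -0.33) or untreated replicate 3 (-0.28 against -0.27). It had 119, 120.3 and 136 CPM in untreated replicates 1 to 3 and 103, 99.6 and 96.5 CPM in doxycycline replicates 1 to 3. Every doxycycline library was below every untreated one, and untreated replicate 3 stood highest. Mean levels were 125 ± 9.42 in untreated and 99.8 ± 3.41 CPM in doxycycline libraries (SD over 3), so that it fell by 0.33 on the log2 scale (adjusted p 0.000984 by edgeR, SE 0.05). It was the only one of the 9 genes called in all 6 fits that each left out a library, with adjusted p-values up to 0.0271.

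Slc2a3, the high-affinity transporter best known from neurons (chromosome 6, 122727809 to 122801640, minus strand), was not detected above the floor of 3 counts in any library. It had 0 counts in 5 libraries and 2 counts in doxycycline replicate 1, which correspond to 0.0629 CPM with an exact Poisson interval of 0.00762 to 0.227 CPM. Per kilobase of exon, Slc2a1 was at least 2544-fold above the level that 3 counts of Slc2a3 would give in each library where Slc2a3 had none. No ratio of the transporters could therefore be tested. Among 9 further transporters of the family, Slc2a9, which carries urate, was the most abundant per kilobase of exon, at 10.2 ± 1.03 CPM in untreated and 10.4 ± 0.612 CPM in doxycycline libraries (edgeR adjusted p 0.943), while Slc2a5 and Slc2a10 had no count in any library.

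The hexokinases were both abundant and Hk2, the inducible form bound to mitochondria in many tumors (chromosome 6, 82725025 to 82774454, minus strand), was the leading one. Hk2 had 239.7, 231 and 226 CPM in untreated and 205, 217 and 200.2 CPM in doxycycline replicates 1 to 3, and the groups did not overlap. Its log2 fold change of -0.16 (SE 0.05, 95% interval -0.26 to -0.07) fell just short of the threshold (edgeR adjusted p 0.0626). Without doxycycline replicate 2, the highest of its group, the adjusted p was 0.000552. Hk1, the widely expressed form (chromosome 10, 62268855 to 62379908, minus strand), had 98.3, 95.7 and 97.7 CPM in untreated and 84.6, 97.5 and 88.8 CPM in doxycycline replicates 1 to 3. Doxycycline replicate 2 lay inside the untreated range, and the log2 fold change was -0.11 (adjusted p 0.351 by edgeR, SE 0.05). Without that library the adjusted p of Hk1 was 0.0322. Hk3 reached but did not exceed the floor of 3 counts in any library, with 9 counts over all 6 libraries. Hkdc1 stayed below the floor, with 1 count over all 6 libraries. The ADP-dependent glucokinase Adpgk was expressed, at 73.6 ± 2.19 and 77.6 ± 2.54 CPM (edgeR adjusted p 0.518).

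Gpi1 (chromosome 7, 34201330 to 34230336, minus strand), the only gene of its step and the most abundant of the 10 genes, had 307, 300.5 and 316 CPM in untreated libraries. The doxycycline replicates had 267, 286 and 293 CPM, below all untreated values. The difference was small and did not pass, with a log2 fold change of -0.13 (SE 0.05, 95% interval -0.22 to -0.03, edgeR adjusted p 0.158), while the adjusted p was 0.0282 without doxycycline replicate 2 and 0.0432 with a correction for GC content and length. Of the 50-base stretches of its longest transcript, 10.2% also occur in the transcript Gm1840, so some of its reads may have been lost or shared.

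Phosphofructokinase is a tetramer whose subunits come from the 3 genes Pfkl, Pfkm and Pfkp. Pfkl (chromosome 10, 77986947 to 78010083, minus strand) had 184, 181 and 182 CPM in untreated libraries and 149, 174 and 153 CPM in doxycycline replicates 1 to 3. The untreated libraries were close together, and doxycycline replicate 2 came nearest to them without overlap. It fell by 0.20 on the log2 scale (adjusted p 0.0351 by edgeR, SE 0.05). Without doxycycline replicate 2 the adjusted p was 1.81e-06. The call was lost in each of the other 5 fits with 1 library fewer, at adjusted p-values of 0.0913 without doxycycline replicate 1, 0.191 without doxycycline replicate 3, and 0.164, 0.132 and 0.162 without untreated replicates 1 to 3.

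Pfkp, the platelet form found in many tumor lines (chromosome 13, 6579768 to 6648777, minus strand), had the larger estimated decrease of the called phosphofructokinases. It had 72.1, 73.1 and 77.3 CPM in untreated and 57.5, 66.6 and 54.8 CPM in doxycycline replicates 1 to 3. The groups did not overlap and doxycycline replicate 2 was again the highest of its group. The log2 fold change was -0.31 (adjusted p 0.00842 by edgeR, SE 0.07), and the call was lost without doxycycline replicate 3 (adjusted p 0.0867) and without untreated replicate 3 (0.0942). Pfkp shares 748 exon bases (5.58% of its exons) with Pitrm1 on the opposite strand, and the strand setting of the counting was not stated. Pitrm1 itself was not called (log2 fold change 0.08, adjusted p 0.413 by edgeR, SE 0.05). Larger parts of the exons overlap for Gpi1 (11.5%, with Gm26762 on the opposite strand) and Pfkm (10.2%, with Gm26513 on its own strand). Gm26762 and Gm26513 were not among the counted genes.

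Pfkm, the muscle form (chromosome 15, 98092589 to 98132451, plus strand), was the scarcest of the 3. It had 15.6, 15.4 and 15.0 CPM in untreated libraries and 11.6, 16.3 and 14.6 CPM in doxycycline replicates 1 to 3, so that the untreated values lay inside the doxycycline range. Its log2 fold change was -0.11 (SE 0.11, 95% interval -0.33 to 0.11, edgeR adjusted p 0.673), an interval that holds both no change and the decreases of Pfkl and Pfkp. Without doxycycline replicate 1 it was 0.01.

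Pfkfb3, whose kinase activity strongly exceeds its phosphatase activity (chromosome 2, 11471433 to 11554077, minus strand), had 29.5, 29.6 and 29.1 CPM in untreated and 24.2, 25.2 and 24.2 CPM in doxycycline libraries. Both groups were tight and separate. It fell by 0.26 on the log2 scale (adjusted p 0.0422 by edgeR, SE 0.07). The call was lost in 5 of the 6 fits with 1 library fewer, at adjusted p-values of 0.069 and 0.15 without doxycycline replicates 1 and 3 and of 0.162, 0.143 and 0.15 without untreated replicates 1 to 3, and it held without doxycycline replicate 2 (0.0198). With the replicate number as a block the adjusted p was 0.0537. Pfkfb4 (chromosome 9, 108991778 to 109032228, plus strand), a related enzyme, had 13.3, 13.8 and 14.2 CPM in untreated and 14.6, 13.1 and 10.6 CPM in doxycycline replicates 1 to 3. Doxycycline replicate 1 was the highest of the 6 libraries and replicate 3 the lowest, and the log2 fold change was -0.12 (SE 0.11, 95% interval -0.34 to 0.11, edgeR adjusted p 0.657). Without doxycycline replicate 3 it was 0.004. The isoenzyme Pfkfb2 was more abundant than either, at 37.9 ± 0.397 and 39.7 ± 4.05 CPM, and was not called (edgeR adjusted p 0.721).

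**Figure D2:**
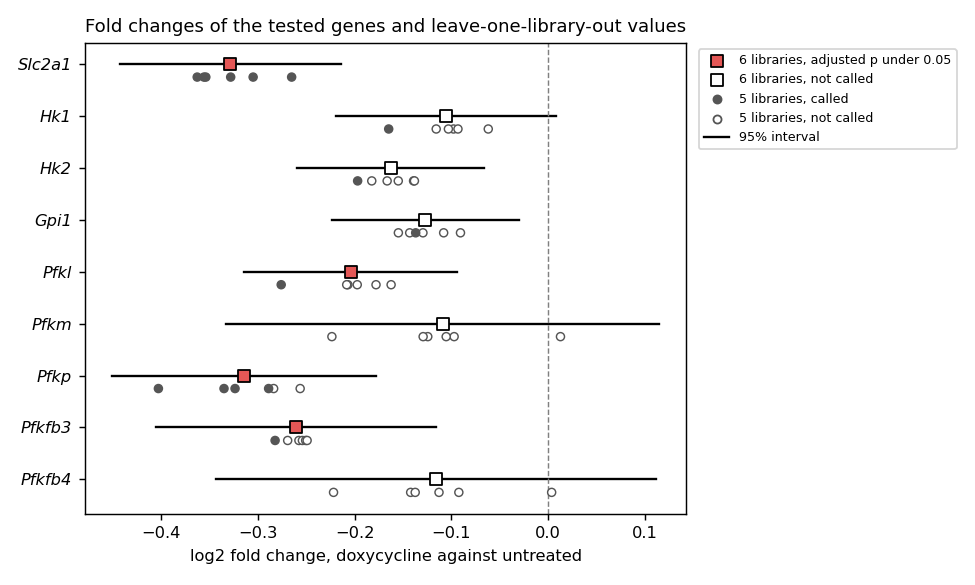
Log2 fold changes of the 9 tested genes, doxycycline against untreated, as squares with 95% intervals from the 6 libraries, filled where the adjusted p is under 0.05. Circles below each square are the 6 fits that each leave out a library, filled where called. Slc2a1 has 6 filled circles, Pfkp 4, and Pfkm and Pfkfb4 cross 0 in 1 fit each.

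Because counts grow with transcript length, levels of different genes were compared as CPM per kilobase of exon. Untreated cells had 47.7 ± 1.22 for Gpi1, 38.9 ± 1.17 for Hk2, 35.7 ± 2.69 for Slc2a1, 27.3 ± 0.236 for Pfkl and 11.4 ± 0.158 for Hk1 (SD, n = 3). Pfkp (5.54 ± 0.208), Pfkm (4.60 ± 0.0861), Pfkfb3 (3.89 ± 0.0396) and Pfkfb4 (2.83 ± 0.096) followed. The ranges over untreated libraries overlapped only for the neighbours Hk2 and Slc2a1, whose order is not resolved. In doxycycline libraries the order of the means was unchanged, and the overlapping neighbours were Pfkp and Pfkm. With the longest transcript as the length, Gpi1 stayed first and Pfkl moved from the fourth to the second place. Pfkm (5.33 ± 0.0998 in untreated libraries) and Pfkfb3 (6.12 ± 0.0624) then changed places, so their order depends on the length used.

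Shares of the isoenzymes were described over the member genes of each step only, with no test. Hk2 gave 77.3 ± 0.482% of the summed CPM per kilobase of Hk1 and Hk2 in untreated and 76.7 ± 0.813% in doxycycline libraries. Pfkl gave 73.0 ± 0.359% and 73.2 ± 0.877% of the 3 phosphofructokinases, Pfkp 14.8 ± 0.568% and 13.7 ± 0.617%, and Pfkm 12.3 ± 0.221% and 13.1 ± 1.33%. Of Pfkfb3 and Pfkfb4 together, Pfkfb3 gave 57.9 ± 1.02% and 55.6 ± 4.01%, the wide spread coming from values of 51.6, 55.5 and 59.6% in doxycycline replicates 1 to 3. That share leaves out Pfkfb2, at 5.22 ± 0.0548 CPM per kilobase in untreated and 5.47 ± 0.558 in doxycycline libraries. It also leaves out Pfkfb1, at 1.11 ± 0.117 and 1.06 ± 0.0883. The summed level per kilobase differed in doxycycline libraries by -20.3% for the transporters, -9.86% for the hexokinases, -13.5% for the phosphofructokinases and -12.8% for Pfkfb3 and Pfkfb4. It went from 50.3 ± 1.24 to 45.3 ± 2.11 for the hexokinases and from 37.5 ± 0.2 to 32.4 ± 3.05 for the phosphofructokinases.

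Whether isoenzymes of a step differed in their change was tested on the log2 ratio of their counts within each library, a quantity that does not depend on library scaling. Of 6 pairs planned, 5 had counts in every library. The log2 ratio of Pfkl to Pfkp was 1.35, 1.31 and 1.23 in untreated and 1.37, 1.38 and 1.48 in doxycycline replicates 1 to 3, higher in all doxycycline libraries by a mean of 0.11. Its exact two-sided permutation p of 0.1 is the smallest that 3 against 3 libraries can give, so this test cannot reach 0.05, and adjusted over the 5 pairs it was 0.5. The log2 ratio of Hk2 to Hk1 differed by -0.05 (exact permutation p 0.3), with means of 1.25 ± 0.0396 and 1.20 ± 0.066. The log2 ratios of Pfkl to Pfkm (-0.08, exact permutation p 0.4), of Pfkp to Pfkm (-0.19, exact permutation p 0.3) and of Pfkfb3 to Pfkfb4 (-0.14, exact permutation p 0.5) overlapped between the groups. Since none of these tests could pass, they show neither that isoenzymes of a step changed alike nor that they changed to different extents.

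**Figure D3:**
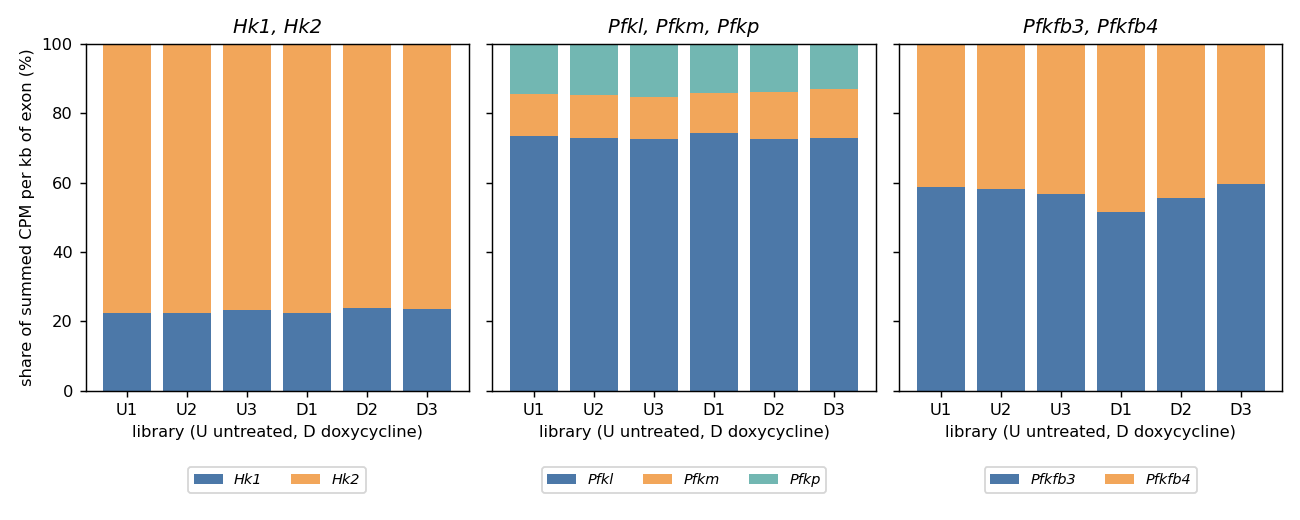
Share of each isoenzyme in the summed CPM per kilobase of exon of the genes in the panel, for untreated (U1 to U3) and doxycycline (D1 to D3) libraries. Hk2 holds 76.1 to 77.7%, Pfkl 72.5 to 74.2% and Pfkfb3 51.6 to 59.6%.

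The rest of the pathway was read from 4 lists of neighbouring genes, in each case beside the background of 0.925% of tested genes higher and 2.16% lower. These lists too were chosen with earlier results of these data known, so their counts are a description. In lower glycolysis and lactate handling, 5 of 14 tested genes were called lower and 0 higher, with a median log2 fold change of -0.13. Triose phosphate isomerase Tpi1 (460.2 ± 8.93 to 386 ± 25.4 CPM, log2 fold change -0.26, edgeR adjusted p 0.00353) and lactate dehydrogenase Ldha (1273 ± 13.6 to 1087 ± 16.9 CPM, -0.23, edgeR adjusted p 0.00217) fell and were called in all 6 fits with 1 library fewer. The other called genes, Pgk1 (-0.20) and Pgam1 (-0.18), were named after their values were seen. The call of Pgk1 was lost without untreated replicate 1 (0.0809) or 3 (0.11) and without doxycycline replicate 3 (0.0796), and that of Pgam1 without any 1 of the untreated replicates (0.0863, 0.101 and 0.268) and without doxycycline replicate 3 (0.069). Aldoa, the aldolase that takes over the product of phosphofructokinase, fell by 0.21 on the log2 scale (edgeR adjusted p 0.0106). Its call was lost without untreated replicate 1 (0.0748), untreated replicate 3 (0.137) or doxycycline replicate 3 (0.084). The list's count of 5 was 6 without doxycycline replicate 2, 3 without untreated replicate 1 and 2 without untreated replicate 3 or doxycycline replicate 3. Lower calls over all tested genes in these fits are given above.

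Genes of the branches at glucose 6-phosphate and fructose 6-phosphate (pentose phosphate, hexosamine, glycogen and gluconeogenic enzymes) gave 2 of 17 tested genes lower and 0 higher, with a median of -0.02. The called genes were the phosphoglucomutase Pgm2, which fell from 53.7 ± 1.29 to 41.5 ± 2.47 CPM (log2 fold change -0.37, edgeR adjusted p 0.000965) and was called in all 6 fits with 1 library fewer, and the glycogen synthase Gys1 (-0.28, edgeR adjusted p 0.0361). The Gys1 call was lost without untreated replicate 2 (0.22) or 3 (0.194) and without doxycycline replicate 1 (0.0851) or 3 (0.211), and the count was then 1. Other transporters and isoenzymes had 0 of 8 tested genes called in either direction, 1 at an unadjusted p under 0.05, and a median of 0.04. DESeq2 also called 0 of them.

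Among regulators that respond to oxygen or glucose, 3 of 15 tested genes were called lower and 1 higher, with a median of -0.04. Txnip, an arrestin-like protein that curbs glucose uptake, was at 26.5 ± 1.77 CPM in untreated and 15.6 ± 2.11 CPM in doxycycline libraries and fell by 0.76 on the log2 scale (adjusted p 3.17e-05 by edgeR, SE 0.09). The HIF prolyl hydroxylases Egln3 (-0.55, edgeR adjusted p 4.08e-06) and Egln1 (-0.26, edgeR adjusted p 0.00541) fell as well, and the call of Egln1 was lost without untreated replicate 3 (adjusted p 0.0843), while its log2 fold change stayed between -0.29 and -0.22 with 1 library fewer. The higher gene was Mlxip, a glucose-responsive transcription factor that works as a dimer with Mlx, at 0.21 (edgeR adjusted p 0.0272), a call lost without any 1 of the 3 untreated replicates (0.154, 0.0933 and 0.141) and without doxycycline replicate 3 (0.116). Mlxip was named after its value was seen, as were Hif1a (366 ± 7.78 and 347 ± 19.6 CPM, edgeR adjusted p 0.437) and Myc (373 ± 9.46 and 378 ± 7.37 CPM, edgeR adjusted p 0.873), which were abundant and not called.

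**Figure D4:**
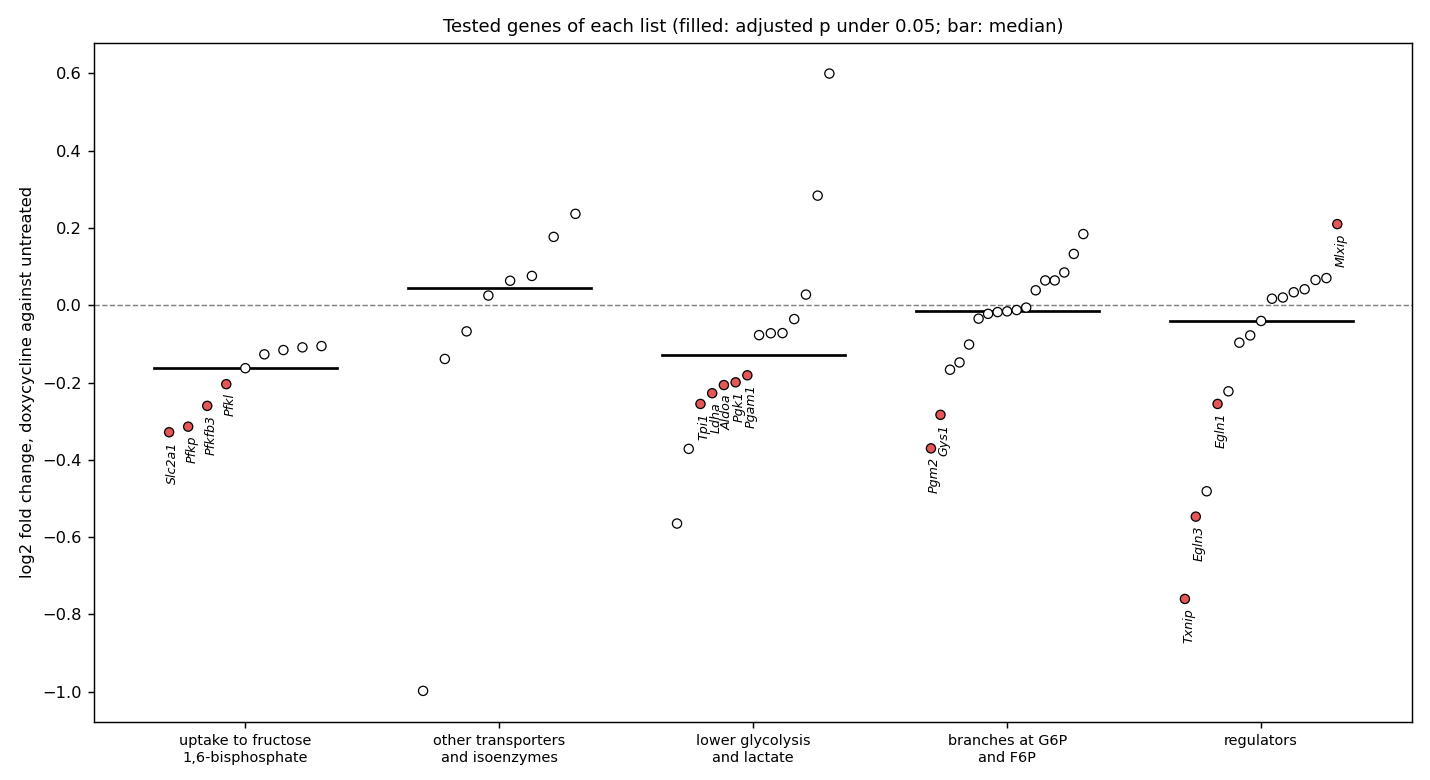
Log2 fold changes, doxycycline against untreated, of the tested genes in the route from uptake to fructose bisphosphate and in the 4 neighbouring lists, ordered by value within each list (G6P, glucose 6-phosphate, and F6P, fructose 6-phosphate). Filled points passed an adjusted p of 0.05 and horizontal bars are medians, -0.16 for the route itself and -0.13 for lower glycolysis.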

How the data were processed

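RNA was depleted of ribosomal RNA and made into libraries with a strand-marking kit. The ribosomal RNA gene Rn45s still took from 8.83% of counts in untreated replicate 1 to 12.1% in doxycycline replicate 2. Its part in the results was not tested. The authors demultiplexed with bcl2fastq 2.20, aligned with STAR to mm10/GRCm38 and counted with featureCounts (Subread 1.6.2, per the submitters' processing notes). They deposited raw counts per gene, replicates apart. Strand and multi-mapping settings are not given in the sources used here, so reads of overlapping or duplicated genes can be lost or shared. The columns were matched to samples by library code, with 0 left over.

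Genes kept by filterByExpr were tested with the quasi-likelihood test of edgeR 4.0.16 (R 4.3.3, TMM scaling, robust, group only), as the study states no covariate, with Benjamini-Hochberg adjustment over all tested genes. The SE of a log2 fold change was obtained from its size and F. Exon lengths, positions and shared 50-base stretches are from GENCODE M21 (GRCm38), promoters from RefSeq (GRCm38.p6). The script was tested on simulated data.

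Members and lists were chosen with earlier results of these data known. Named are all members, up to 3 called genes with the largest change per neighbouring list, and the 5 genes most alike in pattern. Slc2a9, Adpgk, Pfkfb2, Pitrm1, Eno1, Eno1b and other genes outside this rule were named after their values were seen. Alternatives were other scalings, filters, DESeq2 1.42.0, voom of limma 3.58.1, a replicate block, a GC and length correction and leaving out each library. The chi-square statistic per degree of freedom of replicate pairs was 6.14 to 22.1, so none was counted as a duplicate.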

Additional observations from a re-analysis of the deposited data

How the results depend on the processing

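The 9 measurable genes kept a negative log2 fold change in all 16 alternatives, except Pfkm without doxycycline replicate 1 (0.0127) and Pfkfb4 without doxycycline replicate 3 (0.00361). With 1 library left out the lowest values of these were -0.224 and -0.222. Slc2a1 was called in all 16 and Pfkm and Pfkfb4 in none. Pfkl and Pfkp were called in all 10 alternatives that kept the 6 libraries, and Pfkfb3 in 9. Hk2, just short of the threshold, was called in 6 of these 10, among them DESeq2, library size scaling and upper quartile factors. With 1 library left out, between 1 and 7 of these genes were called lower. Over all genes such fits gave 44 to 269 higher and 116 to 487 lower. For the neighbouring lists they gave 2 to 6 lower calls in lower glycolysis, 0 to 1 higher and 1 to 2 lower in the branches and 0 to 1 higher among regulators.

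With the GC and length correction, with or without the block, 6 members were called lower, Gpi1 among them (adjusted p 0.0432 and 0.0498). Over all genes, no filter gave 210 higher and 439 lower, and DESeq2 gave 185 higher. The correction for GC content and length gave 396 higher and 438 lower, so that 52.5% of calls were lower against 70% without it, and with the replicate block 354 and 428. Both of these fits gave 1 branch gene higher. The causes were not tested. Same-numbered libraries did not deviate together (correlations -0.0399, -0.00449 and 0.0176), so no effect shared by number was seen. Whether samples of the same number were handled together is not given in the labels. The replicate block gave 118 genes higher and 300 lower, and 3 members, without Pfkfb3. Permuted within replicate numbers, the ratio of Pfkl to Pfkp had an exact p of 0.25, the smallest that form can give, and the difference is the same by construction. On counts corrected for GC content and length, its difference was 0.11 and its exact permutation p 0.3. That p is above the smallest of 0.1, so the groups were then no longer fully apart. All 5 isoenzyme ratios kept their direction with each of the 6 libraries left out.

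Shares depend on the length used. With the longest transcript, and then with no length scaling, Hk2 had 64.9 and 70.5% in untreated and 64.1 and 69.7% in doxycycline libraries, Pfkl 77.9 and 67.1% and 78.3 and 68.2%, and Pfkp 13.6 and 27.3% and 12.7 and 25.7%. Pfkfb3 had 60.8 and 68.1% in untreated libraries, and 66.0% without length scaling in doxycycline libraries.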

Other observations

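The pattern of the 9 genes over the libraries was summarised as the mean of their standardized log2 CPM, which was 0.69, 0.57 and 0.80 in untreated and -1.04, -0.05 and -0.98 in doxycycline replicates 1 to 3. Doxycycline replicate 2 thus lay between the groups. This library also differed from its group over the whole count table. The chi-square statistic per degree of freedom was 22.06 against doxycycline replicate 1 and 14.5 against replicate 3. It was 6.852 between doxycycline replicates 1 and 3, and 6.138 to 13.08 between untreated replicates. The part of this in the results was not tested. Of 11648 other genes with at least 1 CPM, the most alike were Tbc1d30, Itm2c, Mgst3, Hspb2 and Dcaf7, with Pearson's r from 0.9902 to 0.995 over the same 6 libraries, given as a description because such a search over many genes and few libraries finds high values. Mgst3, a microsomal glutathione S-transferase, was at 19.1 ± 0.977 CPM in untreated and 13.4 ± 1.96 CPM in doxycycline libraries and fell by 0.50 on the log2 scale (adjusted p 0.00592 by edgeR, SE 0.10), a call lost without untreated replicate 1 (0.056) or doxycycline replicate 3 (0.0549). The other 4 were not called, with adjusted p-values from 0.0957 to 0.505.

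Among the enolases, Eno1 had only 0.939 ± 0.178 CPM in untreated libraries while its copy Eno1b had 144 ± 9.85 CPM, so the enolase level in the lower glycolysis list is uncertain.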
